A study of Mus musculus with 12 samples.

Results

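Fetal liver progenitors (HSPC) were compared with both of the lineages they form in this organ, megakaryocytes (MEG) and erythroblasts (ERY), jointly, to list what was lower in both lineages than in the progenitors and what was higher in both. The genes described are those whose HSPC mean lay on the same side of the MEG mean and of the ERY mean. These were 14291 of the 19937 genes with a usable probe set, or 71.7%, of which 6913 were lower in both lineages and 7378 were higher in both, before any threshold. All 3 populations came from livers of E14.5 mouse embryos, a stage at which the liver is the main blood-forming organ. Each was profiled as 4 biological replicates, 1 GeneChip Mouse Gene ST array apiece. No genotype, strain or drug treatment is given for any group in the sources used here. HSPC, which the array labels call Hematopoietic Stem Cell, were depleted of B cells, T cells, myeloid cells (CD11b, Ly-6G/C) and erythroid cells (Ter119, CD71) and then sorted for Sca1, without culture. ERY were taken from the same organ with beads on Ter119, also without culture. MEG were cultured from KIT+ fetal liver progenitors, first with stem cell factor and thrombopoietin and then with thrombopoietin alone, and were selected with beads on CD41. The contrast therefore sets uncultured sorted progenitors against a cultured and an uncultured population, and culture cannot be told apart from lineage in MEG.

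A blood progenitor keeps genes of several fates active at a low level, a state called lineage priming, and relies on growth factor receptors such as KIT and FLT3 and on the transcription factors MYB and MYC to keep dividing and growing. Commitment to the red cell and platelet lineages is driven by GATA1 and TAL1 and is known for the loss of PU.1, the transcription factor that directs myeloid and B lymphoid fates and is encoded by *Spi1*. Both daughter cells end as anucleate products, red cells and platelets, after their precursors have slowed growth and cleared or repartitioned organelles.

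Values are RMA levels on the log2 scale, so that a difference of 1 is a 2-fold change, and a level is compared between populations only for the same gene. A gene was called lower or higher in both lineages where the limma contrast of the mean of MEG and ERY against HSPC had an FDR under 5% and the HSPC mean differed more than 2-fold from MEG and from ERY in the same direction. The change in MEG and the change in ERY share the HSPC arrays and so are not independent of each other. In sorted or selected populations, fewer cells of a type and less RNA per cell cannot be told apart. Probe sets of 1015 olfactory receptor genes, which blood cells are not known to use, marked the background, and their 95th percentile lay at 6.19.

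The HSPC arrays stood apart from each other. Over all probe sets, HSPC arrays 1 and 2 correlated at 0.981 and HSPC arrays 3 and 4 at 0.993, but HSPC arrays 1 and 4 only at 0.913, below the 0.95 of HSPC array 1 with MEG array 3. Genes spanning a long stretch of the genome were lower on HSPC arrays 3 and 4. Among genes above background, split into 4 classes by span, the median difference of HSPC arrays 3 and 4 from arrays 1 and 2 was 0.45 in the class with the shortest spans and -0.50 in the class with the longest. Counts are therefore also given for the genes that were called again, in the same direction, when HSPC arrays 1 and 2 were left out and when HSPC arrays 3 and 4 were left out. Among the MEG arrays, array 3 carried myeloid transcripts and array 4 a raised background, with an olfactory receptor median of 5.70 against 4.28 to 4.55 on the other 3. The markers of each label were in place. *Kit*, *Flt3* and *Cd48* had their highest mean in HSPC, *Itga2b*, *Itgb3*, *Gp9*, *Pf4*, *Ppbp* and *Vwf* in MEG, and *Slc4a1*, *Alas2*, *Rhag* and *Epb42* in ERY. *Itga2b*, whose product CD41 was the antigen selected for in MEG, averaged 8.99 ± 0.76 in HSPC, 12.71 ± 0.11 in MEG and 7.69 ± 0.43 in ERY (mean ± SD, n = 4). *Ly6a*, the gene of Sca1, was not analysed here.

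Lower in both lineages were 1284 genes, 6.44% of the genes tested, and higher in both were 706 genes, 3.54%. Of the 19937 genes 12032 reached the background limit, and a fit of these alone called 1272 lower and 703 higher. The shares of all genes therefore lie below those among genes above background, where most members of each of the 29 gene lists lay. The median of the smaller of the MEG and ERY differences was -1.39 among the lower genes and 1.41 among the higher ones (log2). In the lower set, 29 genes differed over 8-fold in each lineage, and in the higher set 25 did. The direction of the balance depended on the reference level of the arrays. Centring each array on genes above background moved all changes by 0.15 and gave 978 lower and 916 higher genes, and centring on ribosomal protein genes moved them by 0.52 and gave 484 lower and 1754 higher genes. Olfactory receptor genes had a median change of 0.42, with 959 of 1015 on the higher side and 8 called higher.

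**Figure D1:**
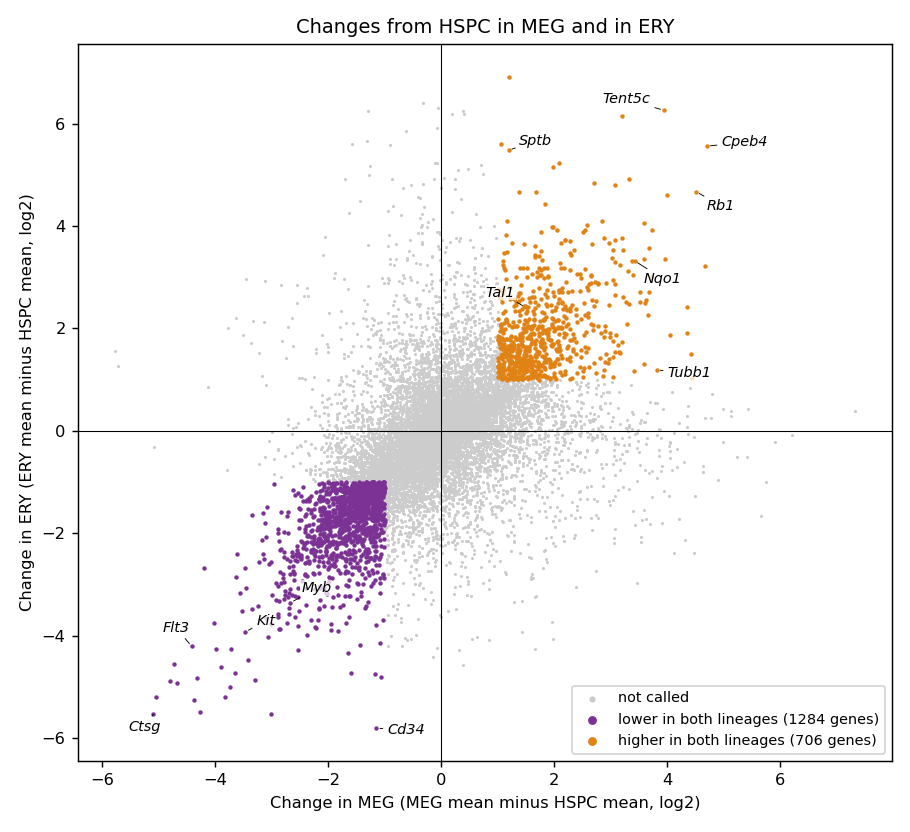
Each point is a gene, with its change from HSPC in MEG on the horizontal axis and in ERY on the vertical axis (both log2). Purple points are the 1284 genes called lower in both lineages and orange points the 706 called higher in both; *Ctsg* and *Flt3* lie far along the diagonal on the lower side and *Rb1* and *Cpeb4* on the higher side, while *Cd34*, *Sptb* and *Tubb1* lie near an axis where the lineages changed unequally.

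The calls differed in how firmly the arrays held them. All 4 HSPC arrays lay above the 8 others in 2166 genes (10.9% of the genes tested) and below them in 995 (4.99%). Of the lower genes, 1155 of 1284 (90.0%) had no overlap between the 4 HSPC and the 8 other arrays, and of the higher genes 390 of 706 (55.2%). Called again with either pair of HSPC arrays left out were 761 lower genes (3.82% of the genes tested) and 236 higher genes (1.18%). With HSPC arrays 1 and 2 left out the counts were 1836 and 1474, and with arrays 3 and 4 left out they were 1034 and 273. The median level of the higher genes was 8.61 and 7.96 on HSPC arrays 1 and 2, 7.03 and 6.79 on HSPC arrays 3 and 4, and 9.15 to 9.66 on the 8 other arrays. The higher genes were long, with a median span of 43764 bp against 17738 bp over all genes and 14276 bp for the lower genes. In the class of genes with the longest spans 10.5% were called higher, and in the shortest class 1.5%. Those 236 higher genes had a median span of 35557 bp. The part of the HSPC arrays' spread in the link with span was not tested.

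**Figure D2:**
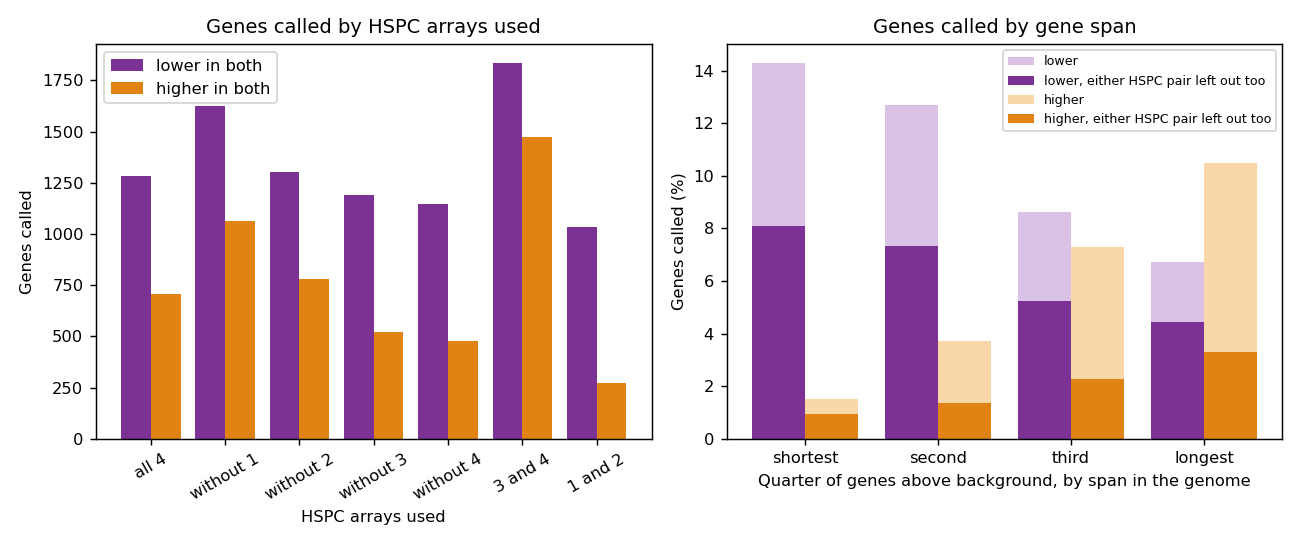
Left, the number of genes called lower (purple) and higher (orange) in both lineages by the HSPC arrays used; the higher genes range from 273 with HSPC arrays 1 and 2 to 1474 with arrays 3 and 4. Right, the share of genes above background called in each of 4 classes of gene span, with the darker bars for genes called again with either pair of HSPC arrays left out; the share called lower falls from the shortest to the longest class and the share called higher rises from 1.5% to 10.5%.

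The 12 leading genes on the lower side were *Ctsg*, *Elane*, *Mpo*, *Sting1*, *Adgrl4*, *Prtn3*, *Cd27*, *Plac8*, *Flt3*, *Cd79b*, *Mc5r* and *Lsp1*, and the 12 on the higher side were *Cpeb4*, *Rb1*, *Mindy2*, *Tent5c*, *Dennd2c*, *Slc22a23*, *Scd1*, *Dnajb4*, *Ache*, *Usp32*, *Isg20* and *Nqo1*, ordered by the smaller of the MEG and ERY differences. Only called genes whose HSPC arrays did not overlap the other arrays could be chosen, which favours calls that repeat. Each of the 24 was called again with either pair of HSPC arrays left out. The lower genes were led by neutrophil granule proteins and surface or signalling proteins of white cells. The higher genes encode proteins of varied roles, among them a translational regulator, a cell cycle inhibitor, ubiquitin proteases and a detoxifying enzyme.

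**Figure D3:**
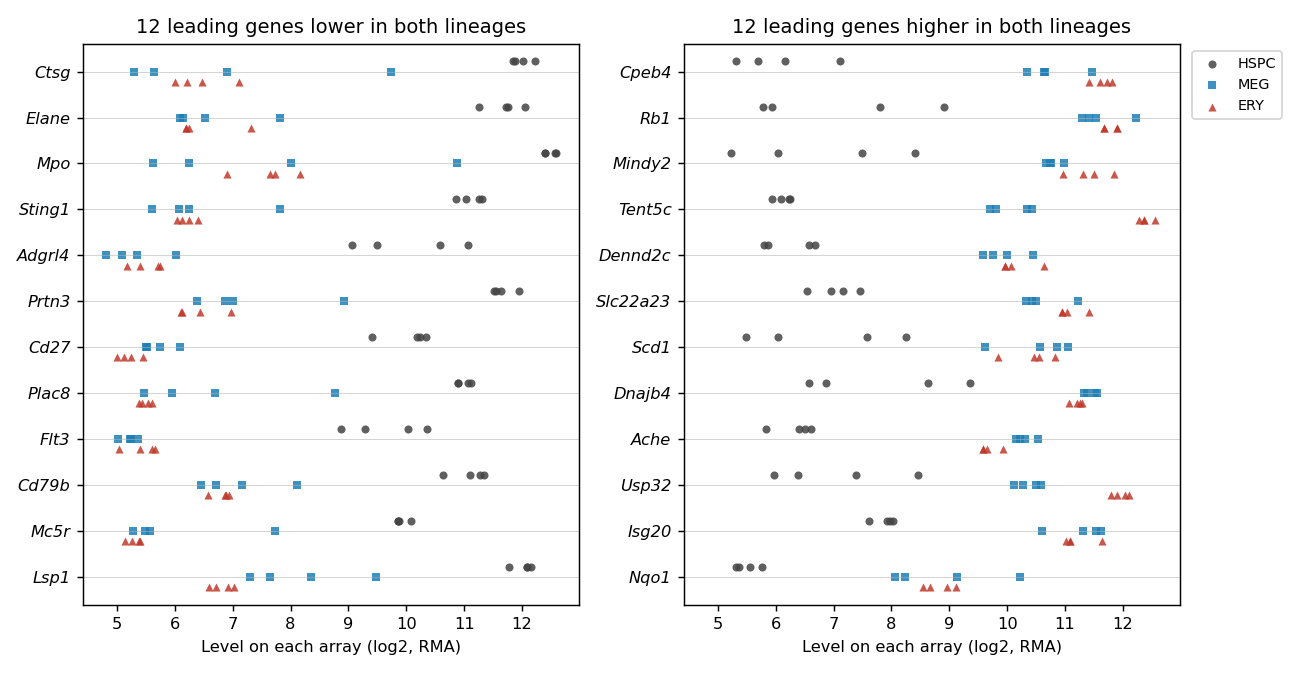
Level of the 12 leading genes lower in both lineages (left) and the 12 higher in both (right) on each of the 12 arrays (log2, RMA; circles HSPC, squares MEG, triangles ERY). The 4 HSPC arrays lie apart from the other 8 for each gene because only such genes could be chosen. The HSPC arrays are spread widely for *Rb1*, *Mindy2*, *Scd1* and *Usp32*, and 1 MEG array, replicate 3, is close to HSPC for *Mpo* and *Ctsg*.

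Genes of myeloid granules led the lower genes. The gene lists used here and below were chosen with earlier results of these data known. A share above that of all genes may therefore be partly built in and is no test. Of 33 genes of granules and monocytes, 14 fell in both lineages (42.4%, against 6.44% of all genes), 13 of them called again with either pair of HSPC arrays left out, and the median change of the list was -1.42. *Ctsg*, which encodes the granule protease cathepsin G, read 12.23, 11.88, 12.02 and 11.85 (replicates 1 to 4) in HSPC, 5.29, 6.90, 9.73 and 5.64 in MEG and 7.11, 6.0, 6.22 and 6.47 in ERY. It changed by -5.10 in MEG and by -5.54 in ERY (mean change -5.32, SE 0.63, adjusted p = 4.1e-05). The HSPC arrays lay within a narrow range, the 8 others did not overlap them, and MEG array 3 was the highest of those. *Elane*, the gene of neutrophil elastase, read 12.05, 11.72, 11.76 and 11.25 in HSPC, 6.09, 6.53, 7.81 and 6.15 in MEG and 7.31, 6.24, 6.20 and 6.20 in ERY. It changed by -5.05 in MEG and -5.20 in ERY (mean change -5.13, SE 0.32, adjusted p = 3.0e-07). *Mpo*, myeloperoxidase, read 12.40, 12.39, 12.59 and 12.57 in HSPC, 5.63, 8.01, 10.87 and 6.24 in MEG and 8.16, 6.91, 7.64 and 7.73 in ERY, with a mean change of -4.84 (SE 0.73, adjusted p = 2.5e-04). Here too MEG array 3 came closest to HSPC, at 10.87. The granule protease proteinase 3, encoded by *Prtn3*, changed by -4.81 (SE 0.37, adjusted p = 1.5e-06), and *Ms4a3*, a membrane protein of granulocyte and monocyte progenitors, by -3.99 (SE 0.29, adjusted p = 9.2e-07). The myeloid transcripts on MEG array 3 ran through the list. Its list median was 8.64, against 6.33 to 7.2 on the other MEG arrays, 6.08 to 6.36 on the ERY arrays and 8.18 to 9.47 on the HSPC arrays. Without MEG array 3 the list had 16 lower members, and the mean change of *Mpo* was -5.37. The HSPC sort had removed cells carrying CD11b or Ly-6G/C, the surface antigens of mature granulocytes.

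The promoters of 3 of these granule genes are shown because each holds the letters GAGGAAGT, a core bound by PU.1, and the gene of PU.1 itself was among the lower genes. The sequences are the 250 bases before the annotated start of each gene in RefSeq (GRCm38.p6), on the gene's strand, with the match in capitals.
*Elane*, chr10:79886062-79886311, plus strand: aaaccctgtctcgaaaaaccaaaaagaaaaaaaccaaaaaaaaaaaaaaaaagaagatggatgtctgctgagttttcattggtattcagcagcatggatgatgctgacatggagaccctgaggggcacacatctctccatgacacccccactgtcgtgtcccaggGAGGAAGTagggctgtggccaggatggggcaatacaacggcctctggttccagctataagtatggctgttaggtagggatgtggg
*Prtn3*, chr10:79879417-79879666, plus strand: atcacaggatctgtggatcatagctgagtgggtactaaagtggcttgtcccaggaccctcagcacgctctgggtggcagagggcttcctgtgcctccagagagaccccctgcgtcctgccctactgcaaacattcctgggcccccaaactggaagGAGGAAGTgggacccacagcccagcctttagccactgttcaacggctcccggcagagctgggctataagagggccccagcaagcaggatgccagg
*Mpo*, chr11:87793534-87793783, plus strand: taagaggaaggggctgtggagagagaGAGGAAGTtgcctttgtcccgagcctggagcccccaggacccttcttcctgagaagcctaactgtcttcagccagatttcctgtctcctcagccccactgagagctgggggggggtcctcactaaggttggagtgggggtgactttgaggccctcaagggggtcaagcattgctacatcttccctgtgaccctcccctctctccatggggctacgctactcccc
The match began 85 bases before the start in *Elane*, 95 in *Prtn3* and 224 in *Mpo*. Searched on both strands, GAGGAAGT was in 2.18% of all 17492 protein-coding promoters of the table, in 4.34% of the 1014 promoters of genes lower in both lineages and in 1.58% of the 569 of genes higher in both. In the ribosome biogenesis list, which is not myeloid, it was in 8.89% of 45 promoters. The median GC content was 59.2% for the lower genes and 55.2% over all promoters, and its part in these shares was not tested. A match is a run of letters and not a measured binding site. *Spi1*, which encodes PU.1, read 11.30, 11.71, 11.77 and 11.91 in HSPC, 7.39, 8.60, 8.07 and 8.33 in ERY and 8.07, 8.44 and 8.63 on MEG arrays 1, 2 and 4, and changed by -2.89 in MEG and -3.57 in ERY (mean change -3.23, SE 0.32, adjusted p = 1.0e-05). MEG array 3 was the highest of the others and still lay below the lowest HSPC array. *Cebpa* and *Irf8*, which encode factors of granulocyte and monocyte fate, were also called lower, as were *Cebpd* and *Cebpe*.

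Genes of lymphoid priming fell in 9 of 21 cases (42.9%, against 6.44% of all genes), 7 of them called again with either pair of HSPC arrays left out, with a median change of -0.94 over the list. *Cd79b*, which encodes a signalling chain of the B cell receptor, read 10.64, 11.10, 11.34 and 11.27 in HSPC, 6.45, 6.71, 8.11 and 7.17 in MEG and 6.57, 6.93, 6.87 and 6.88 in ERY. It changed by -3.98 in MEG and by -4.27 in ERY (adjusted p = 3.0e-07), with no overlap between HSPC and the other arrays. Its partner chain *Cd79a* changed by -2.80 and -2.79 (adjusted p = 7.3e-07), and the surrogate light chain gene *Igll1* by -2.49 and -2.46 (adjusted p = 1.1e-06). *Notch1*, the receptor that directs T cell fate, was at 10.04, 10.10, 10.07 and 10.23 in HSPC, 7.79, 7.0, 8.29 and 7.65 in MEG and 7.42, 7.54, 7.10 and 7.2 in ERY, and the 4 HSPC arrays lay close together, above the others (mean change -2.61, SE 0.19, adjusted p = 9.6e-07). *Ccr9*, a chemokine receptor of thymus-seeking cells, differed among the HSPC arrays themselves, which read 8.15, 7.35, 6.31 and 5.75, but even the lowest of these, itself under the background limit, was above the 8 others (mean change -2.16, SE 0.34, adjusted p = 3.6e-04). *Dntt*, *Vpreb1* and *Bcl11b*, also lymphoid genes, had changes between -0.28 and 0.07 in each lineage and were not called.

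Of 29 stem and progenitor receptors and surface proteins, 10 fell in both lineages (34.5%, against 6.44% of all genes), 9 of them called again with either pair of HSPC arrays left out, and the list median was -1.19. *Kit*, the receptor of stem cell factor, read 11.06, 10.82, 10.22 and 10.02 in HSPC, 6.23, 7.12, 8.30 and 6.57 in MEG and 6.89, 6.39, 6.47 and 6.62 in ERY. It changed by -3.47 in MEG and -3.93 in ERY (mean change -3.70, SE 0.33, adjusted p = 4.3e-06), and MEG array 3 was again the highest outside HSPC. *Flt3*, the receptor of FLT3 ligand on early multipotent cells, read 10.35, 10.03, 9.28 and 8.87 in HSPC, 5.25, 5.23, 5.36 and 5.02 in MEG and 5.03, 5.66, 5.60 and 5.40 in ERY. It changed by -4.42 and -4.21 (mean change -4.32, SE 0.24, adjusted p = 1.6e-07) to below the background limit in both lineages. *Cd27*, a TNF receptor family member of stem cells and lymphocytes, changed by -4.58 (SE 0.18, adjusted p = 1.7e-08), *Selplg*, the selectin ligand PSGL1, by -3.54 (SE 0.29) and *Emcn*, a sialomucin of stem cells and endothelium, by -3.27 (SE 0.20). The receptor genes *Csf3r* and *Il3ra*, for granulocyte colony-stimulating factor and interleukin 3, were called lower as well. *Cd34*, the progenitor and endothelial sialomucin, was called but moved unequally. It read 12.21, 12.30, 12.29 and 12.15 in HSPC, 10.34, 10.91, 11.05 and 12.04 in MEG and 6.46, 6.65, 6.27 and 6.35 in ERY, and changed by -1.15 in MEG and by -5.81 in ERY. MEG array 4, at 12.04, came nearest to the HSPC arrays, and the call was lost without MEG array 1.

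Transcription factors of stem and progenitor cells fell in 11 of 35 cases (31.4%, against 6.44% of all genes), 10 of them called again with either pair of HSPC arrays left out, with a list median of -1.02. *Satb1*, a chromatin organizer of lymphoid and stem cells, read 9.79, 9.42, 8.77 and 8.93 in HSPC, 5.51, 5.54, 6.02 and 5.74 in MEG and 5.28, 5.62, 5.98 and 5.96 in ERY and changed by -3.53 in MEG and -3.52 in ERY (mean change -3.52, SE 0.20, adjusted p = 2.0e-07). *Myb*, which sustains progenitor proliferation, read 11.75, 11.38, 10.53 and 10.33 in HSPC, 7.15, 8.56, 9.89 and 7.71 in MEG and 8.08, 7.27, 7.75 and 7.45 in ERY. It changed by -2.67 in MEG and -3.36 in ERY (mean change -3.02, SE 0.44, adjusted p = 1.8e-04), with MEG array 3 at 9.89 the nearest to HSPC. *Myc*, a driver of cell growth, changed by -2.29 (SE 0.33, adjusted p = 1.9e-04), and its 8 other arrays reached 10.29 at most, below the lowest HSPC array at 11.02. *Zfp521*, a zinc finger protein of immature cells, changed by -2.06 and -2.07 (adjusted p = 3.8e-07). *Erg*, *Hlf*, *Hoxa9*, *Gfi1*, *Cebpa*, *Hhex* and *Spi1* made up the rest of the 11. Other members were higher in MEG and lower in ERY, or short of the 2-fold limit in one of them. *Meis1*, the HOX cofactor, was higher in MEG than in HSPC by 1.80 and differed by -2.69 in ERY, so that its HSPC mean lay between the lineages. *Gata2*, the GATA factor of progenitors, differed by -0.84 in MEG and by -2.86 in ERY (mean change -1.85, SE 0.29, adjusted p = 3.0e-04), which missed the 2-fold limit in MEG. *Runx1*, *Fli1* and *Mycn* had differences from HSPC of 0.36, 1.87 and 0.22 in MEG and of -2.41, -2.56 and -3.19 in ERY.

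Other lists with few lower members are given here beside the 6.44% of all genes called lower. Antigen presentation had 4 of 13 genes lower (30.8%), *H2-DMa* (-3.14, SE 0.18, adjusted p = 1.6e-07) and *Cd74* (-2.36, SE 0.29, adjusted p = 4.7e-05), which load and chaperone MHC class II molecules, *H2-Aa*, a class II chain, and *Psmb8*, an immunoproteasome subunit. All 4 were called again with either pair of HSPC arrays left out. *H2-Aa* averaged 5.93 in HSPC, under the background limit of 6.19, and passed that limit only on HSPC array 2, at 6.74. Of 26 genes of Polycomb and DNA methylation 4 were lower (15.4%), the methyltransferase gene *Dnmt3b* (-2.62, SE 0.23) and the PRC1 genes *Cbx2* (-1.95, SE 0.20), *Phc1* (-1.64, SE 0.16) and *Cbx8* (-1.25, SE 0.16), of which *Cbx8* lost its call with HSPC arrays 3 and 4 left out. *Suz12*, a PRC2 subunit, was called higher, but its HSPC arrays ran from 7.45 to 10.61 and overlapped the others, and the call was lost without HSPC array 3 and without array 4. *Hmga2*, a chromatin protein of fetal stem cells, was the only lower member among 9 fetal regulators (11.1%) and changed by -2.43 (SE 0.22, adjusted p = 4.3e-06). *Lin28b*, its regulator upstream in fetal cells, differed by -0.34 in MEG and 0.63 in ERY and was not called. Endothelial genes fell in 3 of 20 cases (15.0%), *Emcn*, *Icam2* and *Eng*, and mast cell genes in 3 of 13 (23.1%), *Kit*, *Hdc* and *Cpa3*. *Emcn* and *Kit* were also counted among the receptors and surface proteins above. *Cpa3*, a granule carboxypeptidase, overlapped through MEG array 3 at 9.74 and lost its call with HSPC arrays 1 and 2 left out. *Eng*, a co-receptor of TGF-beta, overlapped as well, with 9.14 on HSPC array 1 and 9.47 on MEG array 3, and lost its call with HSPC arrays 3 and 4 left out. Median levels of the endothelial list were 6.73, 7.64, 6.89 and 7.01 on the HSPC arrays, 6.14 to 6.59 on the MEG arrays and 6.39 to 6.79 on the ERY arrays. The part of mixed cells in these calls was not tested. Of 17 hepatocyte genes limma called 0, and 1 had an unadjusted p under 0.05 with HSPC on the same side of both lineages. Their median was 7.81 to 9.93 on the HSPC arrays, 10.12 to 10.93 on the ERY arrays and 5.34 to 5.61 on the MEG arrays, so that these genes were above background in both uncultured populations, and their part in the calls was not tested.

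Genes that serve cell growth were lower as well. Of 51 ribosome biogenesis genes, 23 fell (45.1%, against 6.44% of all genes), 18 of them called again with either pair of HSPC arrays left out, and 39 lay on the lower side, with a list median of -1.11. *Polr1b*, a subunit of RNA polymerase I, read 10.69, 10.96, 10.73 and 10.82 in HSPC, 6.67, 9.31, 9.42 and 8.36 in MEG and 8.93, 8.24, 8.82 and 9.0 in ERY. It changed by -2.36 in MEG and -2.05 in ERY (mean change -2.21, SE 0.41, adjusted p = 0.00105), with MEG array 1 far below the rest. The other leading members were *Rrp9* (-2.31, SE 0.34), an rRNA processing factor of the U3 particle, *Bop1* (-2.18, SE 0.35), of the PES1 and WDR12 complex in large subunit assembly, *Rrp1b* (-2.02, SE 0.33), a nucleolar protein, and *Mybbp1a* (-1.96, SE 0.32), a nucleolar binding partner of MYB. Both partners of BOP1, *Pes1* and *Wdr12*, were lower, as were *Fbl* and *Nop10*, of the 2 kinds of particles that modify rRNA. *Npm1*, *Ncl* and *Nop58*, also nucleolar, had changes between -0.12 and 0.57 and were not called. List medians were 9.24 to 9.93 on the HSPC arrays, 8.15 to 8.83 on the ERY arrays, and 7.5, 9.12, 9.10 and 8.31 on the MEG arrays. HSPC lay above the others, MEG array 1 was the lowest, and the HSPC arrays did not overlap the rest. When the arrays were centred on ribosomal protein genes, which themselves had a median change of -0.41, 9 of the 51 remained past the threshold.

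Genes of nucleotide and one-carbon synthesis showed a like pattern, with 8 of 25 lower (32.0%, against 6.44% of all genes), 7 of them called again with either pair of HSPC arrays left out, and a median of -1.0. *Phgdh*, the entry enzyme of serine synthesis, read 9.62, 9.90, 10.72 and 10.64 in HSPC, 7.0, 7.61, 8.32 and 7.29 in MEG and 7.94, 6.84, 8.08 and 7.88 in ERY and changed by -2.67 in MEG and -2.54 in ERY (mean change -2.60, SE 0.30, adjusted p = 3.7e-05). *Shmt1*, which passes carbon units from serine to folate, changed by -2.22 (SE 0.22), *Cad*, which begins pyrimidine synthesis, by -1.97 (SE 0.28), and the purine enzymes *Adsl* and *Gart* by -1.81 (SE 0.26) and -1.69 (SE 0.22). *Dhodh* and *Umps*, the later pyrimidine steps, were called as well. After centring on ribosomal protein genes the list had 4 lower members. Of 48 DNA replication genes 2 were lower in both lineages (4.17%, against 6.44% of all genes), the polymerase delta subunits *Pold1* (-1.88, SE 0.27) and *Pold2* (-1.79, SE 0.27), and 14 had HSPC on the same side of both lineages, 11 of them as the higher. *Pold1* lost its call with HSPC arrays 3 and 4 left out. *Mcm7*, a helicase subunit picked here as an example after its values were seen, differed by -2.62 in MEG and 0.05 in ERY. Among 13 cyclins and kinases of G1 and S phase, *Cdk4* (-1.24, SE 0.23, adjusted p = 9.4e-04) and *Ccnd1* (-1.40, SE 0.42, adjusted p = 0.0216), which drive entry into S phase together, were lower (15.4%, against 6.44% of all genes), and both calls were lost with HSPC arrays 3 and 4 left out. For *Ccnd1* the mean change was then -1.70, and the call was lost on the limma adjusted p of 0.0594. *Ccnd1* also lost its call without HSPC array 2 and without MEG array 1.

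Of the miR-17-92 cluster on chromosome 14, a polycistron activated by MYC that restrains cell cycle inhibitors and death genes, 3 hairpin genes were among the lower genes. Over all genes tested 6.44% were called lower. The other hairpin genes of the cluster are not described here, so nothing is said of the cluster as a whole. *Mir15a*, whose mature form represses cyclins, was among the higher genes. These genes were picked after their values were seen, and the probe sets cover the hairpin genes and do not measure the mature forms. The mature sequences from RefSeq (GRCm38.p6) are shown with the seed, bases 2 to 8, in capitals, because a seed largely sets which mRNAs a miRNA binds and these 4 genes went in opposite directions.
miR-17-5p, chr14:115043684-115043706: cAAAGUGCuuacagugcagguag
miR-18a-5p, chr14:115043867-115043889: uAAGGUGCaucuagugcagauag
miR-19a-3p, chr14:115044048-115044070: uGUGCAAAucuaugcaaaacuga
miR-15a-5p, chr14:61632075-61632096: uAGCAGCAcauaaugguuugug
The first 3 lie on the plus strand close to each other and carry 3 different seeds, and miR-15a-5p, on the minus strand, carries another. *Mir17* read 5.63, 6.09, 6.34 and 6.48 in HSPC, 5.10, 4.49, 4.64 and 4.65 in MEG and 4.36, 4.16, 4.55 and 4.84 in ERY (mean change -1.54, SE 0.18, adjusted p = 4.1e-05). *Mir18* read 7.33, 8.45, 8.73 and 8.51 in HSPC, 6.38, 6.28, 5.86 and 5.66 in MEG and 5.53, 4.46, 7.14 and 7.09 in ERY (mean change -2.21, SE 0.46, adjusted p = 0.00221). Outside HSPC, *Mir17* was below the background limit on all 8 arrays, as it was on HSPC arrays 1 and 2, and the HSPC arrays of *Mir17* and of *Mir18* did not overlap the others. *Mir19a* was called too (-1.61, SE 0.32, adjusted p = 0.00175), but it was under the limit on all arrays. *Mir15a* read 7.03, 5.86, 5.67 and 5.54 in HSPC, 9.20, 6.58, 6.62 and 8.0 in MEG and 9.38, 9.10, 8.03 and 7.65 in ERY (mean change 2.04, SE 0.51, adjusted p = 0.00698), with HSPC array 1 above 2 of the MEG arrays, and its call and that of *Mir18* were lost with a pair of HSPC arrays left out.

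**Figure D4:**
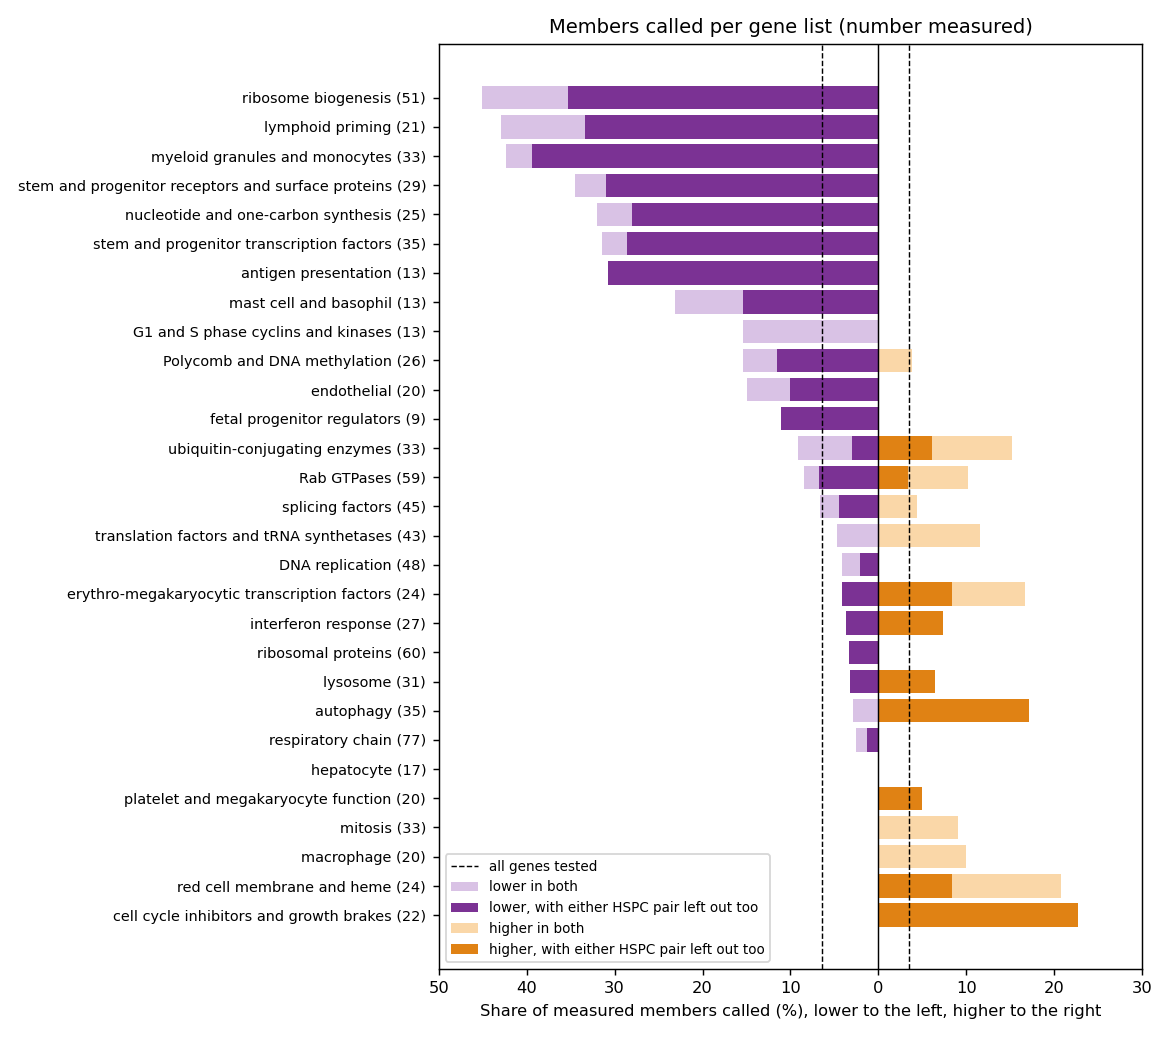
Share of the measured members of each gene list called lower (purple, to the left) and higher (orange, to the right) in both lineages, with darker bars for members called again with either pair of HSPC arrays left out and dashed lines at the shares of all genes, 6.44% and 3.54%. Ribosome biogenesis (45.1%), lymphoid priming (42.9%) and myeloid genes (42.4%) reach furthest to the left, and cell cycle inhibitors (22.7%), red cell genes (20.8%) and autophagy genes (17.1%) furthest to the right. The red cell share counts *Tfrc*, whose product CD71 was used to deplete the HSPC. The lists were chosen with earlier results of these data known, and the shares of all genes include genes below background.

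On the higher side, brakes on the cell cycle and on growth had the largest share. Of 22 such genes 5 rose in both lineages (22.7%, against 3.54% of all genes), all 5 called again with either pair of HSPC arrays left out, and the list median was 0.98. *Rb1*, the retinoblastoma protein that holds back E2F, read 8.91, 7.80, 5.93 and 5.79 in HSPC, 12.23, 11.42, 11.53 and 11.30 in MEG and 11.89, 11.67, 11.90 and 11.68 in ERY. It rose by 4.51 in MEG and 4.67 in ERY (mean change 4.59, SE 0.48, adjusted p = 1.6e-05). Its HSPC arrays were spread widely, with arrays 3 and 4 below the background limit, and none reached the lowest other array at 11.30. With HSPC arrays 3 and 4 left out its mean change was 3.35, and with arrays 1 and 2 left out 5.84. *Mxd1*, which competes with MYC for MAX, read 7.61, 7.92, 7.68 and 7.65 in HSPC, 11.14, 10.70, 10.76 and 10.55 in MEG and 10.91, 11.22, 10.91 and 11.02 in ERY and rose by 3.07 in MEG and 3.30 in ERY (mean change 3.19, SE 0.13, adjusted p = 1.7e-08). In this gene the HSPC arrays lay close together, far below the other 8. *Gadd45a*, a growth arrest gene, changed by 3.16 (SE 0.22, adjusted p = 7.6e-07), and the kinase inhibitors *Cdkn2d* (p19) and *Cdkn1b* (p27) by 2.08 (SE 0.20) and 1.90 (SE 0.22). Other members were not called. *Cdkn2c* differed by 4.16 in ERY and -0.38 in MEG, and *Ccng1* by 3.02 in MEG and 0.96 in ERY.

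Autophagy genes rose in 6 of 35 cases (17.1%, against 3.54% of all genes), each of them called again with either pair of HSPC arrays left out, while *Tfeb*, which encodes a transcription factor of lysosome and autophagy genes, was called lower, a call lost with HSPC arrays 3 and 4 left out and after either centring. The list median was 0.35, against 0.42 for olfactory receptor genes, and the 6 were spread over the steps of the pathway. *Wipi1*, a phosphoinositide binder on forming autophagosomes, read 6.37, 5.97, 6.31 and 6.27 in HSPC, 9.97, 8.43, 8.44 and 8.68 in MEG and 9.31, 9.33, 9.17 and 9.30 in ERY and rose by 2.65 in MEG and 3.05 in ERY (mean change 2.85, SE 0.24, adjusted p = 3.3e-06), with the HSPC arrays close together. *Atg4a*, a protease that trims ATG8 proteins, changed by 3.24 (SE 0.47), the cargo receptors *Tax1bp1* and *Nbr1* by 2.71 (SE 0.43) and by 1.59 in MEG with 1.89 in ERY, and *Rb1cc1*, the FIP200 subunit of the ULK1 complex, by 2.29 (SE 0.37). *Bnip3l*, also called NIX, the receptor that removes mitochondria from reticulocytes, read 11.47, 11.01, 10.25 and 9.87 in HSPC, 12.79, 12.58, 12.52 and 12.57 in MEG and 12.73, 12.70, 12.69 and 12.63 in ERY and rose by 1.96 and 2.04 (adjusted p = 3.9e-05). In *Atg4a*, *Tax1bp1* and *Rb1cc1* HSPC arrays 3 and 4 were lower than arrays 1 and 2, and no HSPC array reached the others. Of 31 lysosome genes 2 were higher (6.45%, against 3.54% of all genes) and 1 lower (3.23%, against 6.44%), with *Atp6v0a1*, a proton pump subunit (2.74, SE 0.14), and *Ctsb*, cathepsin B (1.54, SE 0.19), higher and *Gaa*, acid glucosidase (-1.76, SE 0.26), lower. With HSPC arrays 1 and 2 left out 6 were higher.

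Of 24 transcription factors of the erythro-megakaryocytic lineages, 4 rose in both (16.7%, against 3.54% of all genes), and *Tal1* and *Mafg* were called again with either pair of HSPC arrays left out. *Tal1* read 8.09, 8.56, 8.65 and 8.70 in HSPC, 10.58, 9.99, 9.76 and 9.64 in MEG and 10.87, 11.02, 10.84 and 10.91 in ERY and rose by 1.49 in MEG and 2.41 in ERY (mean change 1.95, SE 0.17, adjusted p = 4.3e-06), with the HSPC arrays below all others. *Gata1* read 8.19, 9.51, 10.18 and 10.20 in HSPC, 10.69, 10.94, 10.86 and 10.41 in MEG and 11.01, 11.14, 11.08 and 11.22 in ERY and rose by 1.21 and 1.59 (mean change 1.40, SE 0.31, adjusted p = 0.00321). HSPC array 1 was the lowest of the 12 by far, and without it the mean change was 0.96 and the call was lost. *Mafg*, a small MAF protein that pairs with NF-E2 and NRF2 (1.89, SE 0.15, adjusted p = 1.7e-06), and *Bach1*, a heme-sensitive repressor that also pairs with small MAF proteins (1.60, SE 0.21), were the other members. *Stat5a*, a signal carrier of cytokine receptors, was lower (-2.03, SE 0.21, adjusted p = 1.5e-05), the only such member (4.17%, under the 6.44% of all genes). *Klf1*, the erythroid Kruppel-like factor, was not called, with changes of -2.38 in MEG and 2.78 in ERY, and *Nfe2* with 0.22 and 0.65.

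Some genes of the antioxidant response rose in both lineages and others were not called. They were gathered after their values were seen, apart from *Nqo1*. *Nqo1*, a quinone reductase, read 5.31, 5.76, 5.56 and 5.37 in HSPC, 10.22, 9.14, 8.07 and 8.24 in MEG and 8.54, 9.12, 8.66 and 8.96 in ERY and rose by 3.42 in MEG and 3.32 in ERY (mean change 3.37, SE 0.33, adjusted p = 8.3e-06); all 4 HSPC arrays lay below the background limit. *Gclm*, the modifier subunit of the enzyme that begins glutathione synthesis, read 9.82, 9.49, 8.61 and 8.43 in HSPC, 12.58, 12.15, 12.16 and 12.10 in MEG and 12.35, 12.35, 12.26 and 12.29 in ERY and rose by 3.16 and 3.23 (adjusted p = 8.6e-07). *Srxn1*, which repairs peroxiredoxins, rose by 3.33 and 2.47 (adjusted p = 2.0e-07). Of the others, *Gclc*, the catalytic partner of GCLM, differed by 0.89 in MEG and 2.04 in ERY, *Txnrd1* by 0.52 and 0.51, *Slc7a11* by 3.46 and -0.05, and *Hmox1*, heme oxygenase, by -0.90 and 1.47. The letters TGACNNNGC, the core of the antioxidant response element to which NRF2 and small MAF proteins bind, were searched on both strands in the 250 bases before each start. They were in 10.5% of all protein-coding promoters of the table, in 15.5% of those of the higher genes, in 20.3% of the 187 promoters of the higher genes called again with either pair of HSPC arrays left out, and in 9.57% of those of the lower genes. The median GC content was 55.2% over all promoters, 63.2% for the higher genes and 59.2% for the lower ones, and its part in these shares was not tested. The promoters of *Gclm* and *Mxd1* are shown as called genes with a match, in capitals, which reads on the minus strand of each gene.
*Gclm*, chr3:122245307-122245556, plus strand: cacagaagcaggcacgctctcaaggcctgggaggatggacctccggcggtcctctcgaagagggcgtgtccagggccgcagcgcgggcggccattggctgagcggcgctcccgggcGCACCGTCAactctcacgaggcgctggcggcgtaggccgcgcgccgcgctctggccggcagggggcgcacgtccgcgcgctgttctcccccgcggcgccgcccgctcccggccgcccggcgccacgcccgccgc
*Mxd1*, chr6:86669160-86669409, minus strand: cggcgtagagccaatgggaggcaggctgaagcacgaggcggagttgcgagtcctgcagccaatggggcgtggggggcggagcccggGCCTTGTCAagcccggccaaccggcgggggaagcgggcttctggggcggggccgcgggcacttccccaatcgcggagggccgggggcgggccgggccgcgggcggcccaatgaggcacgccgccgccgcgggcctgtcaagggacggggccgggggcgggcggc
The match began 134 bases before the start in *Gclm* and 164 in *Mxd1*, counted from the start of transcription that the RefSeq promoter table uses. In both genes that start lies inside the span that the RefSeq gene table gives the gene. Other motifs were CACGTG, bound by MYC and USF, in 6.64% of all promoters, 9.57% of the lower genes' and 11.1% of the higher genes', CCGGAAG, of the ETS family, in 9.13%, 13.5% and 14.9%, and AGATAA, of GATA factors, in 9.12%, 5.62% and 5.27%.

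Among the leading higher genes, *Cpeb4*, which binds mRNA tails and is a translational regulator in erythroid maturation, read 7.12, 6.17, 5.69 and 5.32 in HSPC, 11.46, 10.63, 10.35 and 10.65 in MEG and 11.73, 11.81, 11.61 and 11.41 in ERY. It rose by 4.70 in MEG and 5.56 in ERY (mean change 5.13, SE 0.29, adjusted p = 1.9e-07). *Tent5c*, a poly(A) polymerase, read 6.23, 6.25, 5.94 and 6.10 in HSPC, 9.71, 10.34, 10.42 and 9.80 in MEG and 12.36, 12.55, 12.28 and 12.37 in ERY and rose by 3.94 and 6.26 (adjusted p = 1.2e-09). It was below the background limit on 2 of the 4 HSPC arrays and close to it on the others, and ERY exceeded MEG by 2.32. *Ache*, acetylcholinesterase, which in mice is a classical product of megakaryocytes and also sits on red cells, read 5.84, 6.61, 6.51 and 6.4 in HSPC, 10.54, 10.30, 10.22 and 10.15 in MEG and 9.59, 9.92, 9.59 and 9.65 in ERY and rose by 3.96 and 3.35 (adjusted p = 1.9e-08). *Mindy2* and *Usp32*, ubiquitin proteases, changed by 4.30 (SE 0.45) and 4.11 (SE 0.35), *Scd1*, which desaturates fatty acids, by 3.63 (SE 0.46), *Dnajb4*, a co-chaperone, by 3.47 (SE 0.42), *Dennd2c*, of a family of Rab exchange factors, by 3.82 (SE 0.22), and *Slc22a23*, an orphan transporter, by 3.83 (SE 0.20). Of 33 genes listed under ubiquitin-conjugating enzymes 5 were higher (15.2%, against 3.54% of all genes) and 3 lower (9.09%, against 6.44%). Of these, 2 and 1 were called again with either pair of HSPC arrays left out. *Ube2h* rose by 2.97 in MEG and 3.67 in ERY and *Ube2o*, known for clearing ribosomes from reticulocytes, by 2.29 and 3.43 (adjusted p = 4.4e-07 and 5.8e-08). The lower member called again was *Ube2cbp* (-1.75, SE 0.19), whose symbol stands for a binding protein of such an enzyme and not for an enzyme of this kind. Of 59 Rab GTPases, which direct vesicle traffic, 6 were higher (10.2%, against 3.54% of all genes), among them *Rab6a* (2.0, SE 0.29) and *Rab8b* (2.0, SE 0.33). With either pair of HSPC arrays left out 2 of the 6 were called again. The 5 lower ones (8.47%, near the 6.44% of all genes) included *Rab31* (-2.72, SE 0.35) and *Rab4a* (-1.96, SE 0.28), and 4 of the 5 were called again. Of 27 interferon response genes 2 were higher (7.41%, against 3.54% of all genes) and 1 lower (3.7%, against 6.44%). The higher ones were *Isg20*, a ribonuclease (3.35, SE 0.19, adjusted p = 1.9e-07), and the antiviral gene *Rsad2* (2.96, SE 0.28), and the lower one was *Irf1* (-2.24, SE 0.25). The leading lower genes outside the lists were *Sting1*, an adaptor that senses cytosolic DNA signals (-4.80, SE 0.31), *Adgrl4*, an adhesion receptor of endothelium (-4.65, SE 0.34), *Plac8* (-4.89, SE 0.45), *Mc5r*, a melanocortin receptor (-4.26, SE 0.36), and *Lsp1*, an actin-binding protein of leukocytes (-4.52, SE 0.31).

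Several lists had higher calls that depended on which HSPC arrays were used. Of 33 mitosis genes 3 were called higher (9.09%, against 3.54% of all genes), the condensin genes *Smc2* (2.17, SE 0.51) and *Smc4* (2.45, SE 0.54) and the kinesin gene *Cenpe* (2.14, SE 0.55). With HSPC arrays 1 and 2 left out there were 11, and with arrays 3 and 4 left out these 3 lost their calls. *Smc4* read 9.77, 8.32, 6.55 and 5.92 in HSPC, 9.69, 9.55, 9.57 and 9.32 in MEG and 10.78, 10.35, 10.92 and 10.53 in ERY, so that HSPC array 1 was above all 4 MEG arrays and HSPC arrays 3 and 4 were far below all MEG and ERY arrays. Of 43 translation factors and tRNA synthetases 5 were higher (11.6%, against 3.54% of all genes), *Eif2s2*, *Eif5b*, *Nars*, *Eif3a* and *Eprs*. The 2 lower ones (4.65%, against 6.44%) were *Vars* and *Eif2b5*. None of these 7 was called again with both pairs of HSPC arrays left out in turn. In the splicing list of 45 genes 3 were lower (6.67%) and 2 higher (4.44%), near the 6.44% and 3.54% of all genes. *Hnrnph2* and *Sf3b1* were called higher and lost their calls with HSPC arrays 3 and 4 left out, whereas *Snrpa* (-1.62, SE 0.18, adjusted p = 2.4e-05) and *Prpf19* (-1.52, SE 0.19, adjusted p = 5.7e-05), of the spliceosome, were called lower each time. *Prpf31* was lower too and lost its call without MEG array 1, HSPC array 4 or ERY array 2. Macrophage genes had *C1qc* and *Mertk* higher, both lost with HSPC arrays 3 and 4 left out. The median of the 20 macrophage genes was 6.44 to 7.59 on the HSPC arrays, 6.92 to 8.27 on the MEG arrays and 8.14 to 9.14 on the ERY arrays, and the part of macrophages in the higher genes was not tested.

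**Figure D5:**
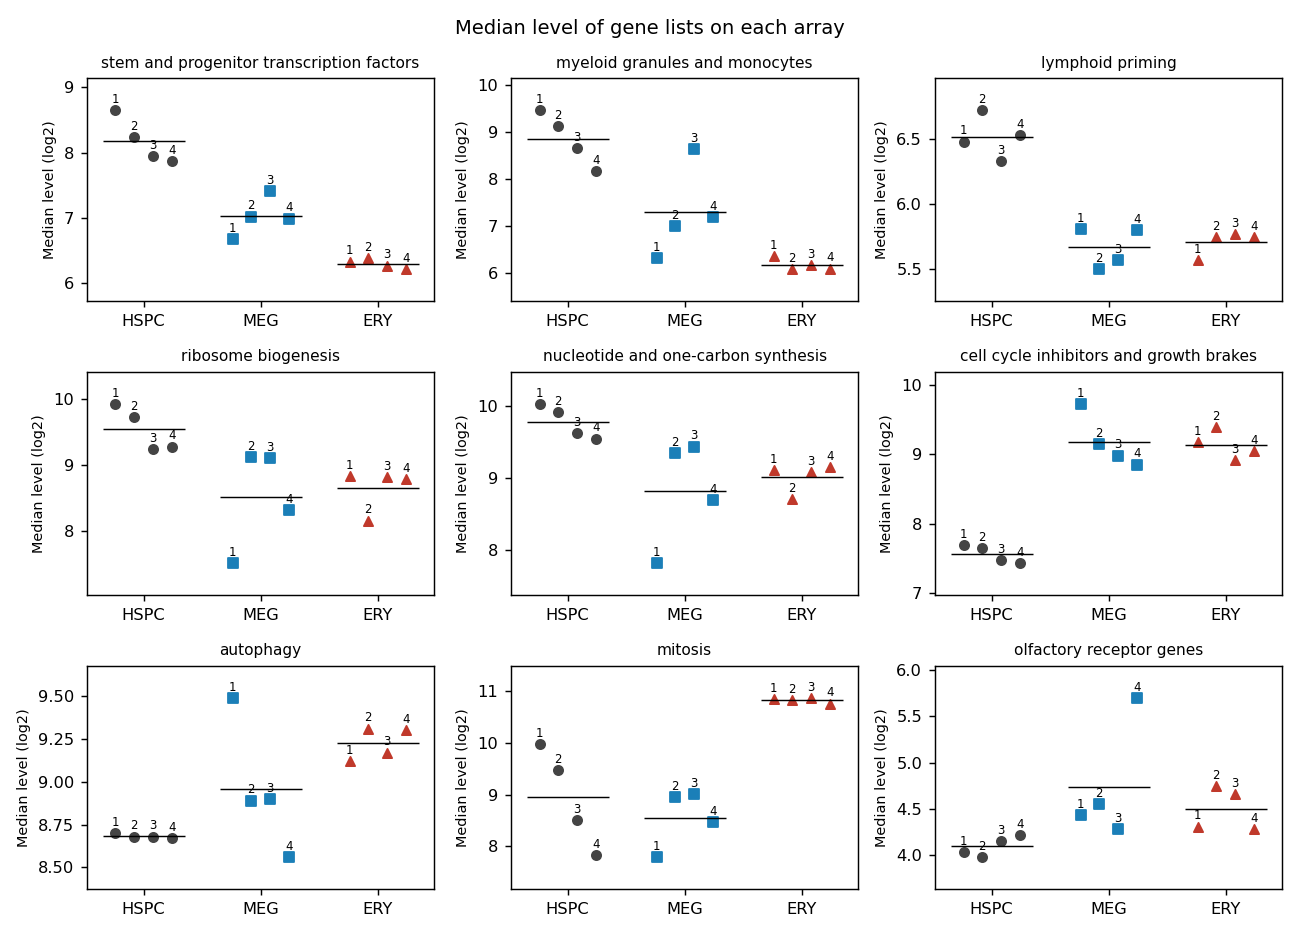
Median level of 8 gene lists and of the olfactory receptor background on each array (log2); numbers mark the replicate and lines the mean of 4 arrays. HSPC arrays lie above the others for ribosome biogenesis (9.24 to 9.93 in HSPC) and below them for the growth brakes, while for mitosis the HSPC arrays are spread from 7.83 to 9.98, and MEG array 3 is high for myeloid genes (8.64).

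Of 24 red cell and heme genes 5 were higher in both lineages (20.8%, against 3.54% of all genes), 2 of them called again with either pair of HSPC arrays left out, and 7 had HSPC on the same side of both. *Gypc*, glycophorin C, rose by 1.28 in MEG and 2.57 in ERY (adjusted p = 2.6e-07), and *Trim58*, a ubiquitin ligase of late erythroblasts, by 1.70 and 3.0 (adjusted p = 1.9e-04). *Sptb*, beta spectrin, differed far more in ERY, by 5.48, than in MEG, by 1.19, and *Cpox*, of heme synthesis, by 4.66 against 1.38. *Tfrc*, which encodes the transferrin receptor CD71, was called as well, but CD71 was an antigen used to deplete the HSPC, so its difference is no finding. Ter119 was used to deplete the HSPC and to select ERY, and the part of this in the other red cell genes was not tested. The calls of *Sptb*, *Cpox* and *Tfrc* were lost with HSPC arrays 3 and 4 left out. Of 20 platelet genes the beta tubulin *Tubb1* was called higher in both (5.0%, near the 3.54% of all genes), by 3.81 in MEG and 1.19 in ERY. Its HSPC array 2, at 8.80, lay above ERY array 1, at 8.75. Among all genes called, MEG and ERY differed from each other over 2-fold at an FDR under 5% in 128 of the 1284 lower genes (9.97%), 102 of them with more in MEG, and in 121 of the 706 higher genes (17.1%), 80 of them with more in ERY. Over all genes tested this share was 16.5%. Of 60 ribosomal protein genes *Rpl12* and *Rpl14* were lower (3.33%, median of the list -0.41, 53 on the lower side). Of 77 respiratory chain genes *Cox6a2* and *Ndufb5* were lower (2.6%, median -0.44, 55 on the lower side). Both shares were under the 6.44% of all genes. With HSPC arrays 1 and 2 left out 11 respiratory chain genes were lower, and with arrays 3 and 4 left out *Ndufb5* lost its call. After centring on ribosomal protein genes these 2 medians were 0.12 and 0.09.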

How the data were processed

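Expression was measured on 12 arrays, 4 each of HSPC, MEG and ERY. The authors deposited log2 values made by RMA, 1 for each probe set on each array; its version and settings and the strain of the mice were not given in the sources used here. RMA equalizes the arrays, so that a change shared by most genes is not seen. Array medians lay between 5.99 and 6.25. The number of arrays limits the precision.

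Of 34760 probe sets, 21640 carried 1 gene symbol and were used, 1321 carried several and 11799 none. This gave 19937 genes, of which 954 had more than 1 probe set, and the one with the highest mean over the 12 arrays was taken. A RefSeq table held 19855 of the genes and gave their spans, and promoters and miRNAs came from RefSeq tables (GRCm38.p6).

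A limma 3.58.1 model (R 4.3.3) with 1 mean per population was fitted to all 12 arrays. The mean of MEG and ERY was set against HSPC, with Benjamini-Hochberg adjustment over the 19937 genes, and adjusted p values are limma's. Called genes had an FDR under 5% and a change of over 2-fold in each lineage. The same limits were used for MEG against ERY. The labels call the replicates biological but do not say which animals they came from. The 29 gene lists and the olfactory receptor genes were compared by counts and medians. Members and lists were chosen with earlier results of these data known. Named genes were the 12 per direction with the largest smaller-of-both change, no overlap of HSPC with the other arrays and a level over the background limit, leaving out predicted genes; up to 5 called members per list with the largest smaller-of-both change; and *Kit*, *Flt3*, *Cd34*, *Gata2*, *Gata1*, *Tal1*, *Myb*, *Myc* and *Meis1*. Other genes named with values, namely the miRNA, antioxidant and marker genes, *Mcm7* and the list members that were not called, were chosen after their values were seen, and the motifs were too.

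Alternatives were leaving out each array, either pair of HSPC arrays, or MEG arrays 1 and 3; the replicate number as a block; array weights; a trended and robust variance; quantile normalization; centring on genes above background or on ribosomal protein genes; filters at the background limit and at the median of all genes; raising of low values to the limit; the mean over probe sets; 1.5-fold; an FDR of 1%; a mean change of over 2-fold without a limit in each lineage; and each lineage's own test. The fit was tested on simulated data. Python 3.11.15 with numpy 2.4.6 and pandas 2.3.3 served for tables and plots.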

Additional observations from a re-analysis of the deposited data

Results flagged for a closer look

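MEG and ERY differed from each other, by limma's test of the difference itself (over 2-fold, FDR under 5%), in 18 of 117 called genes. These 117 were among the 119 genes described in the text that the naming rules given above had picked. Over all genes tested the share was 16.5%. Genes named otherwise were not counted, among them *Daam1* and *Cd48*, in which MEG exceeded ERY by 1.46 and 1.28 at the same limits. Among genes lower in both lineages, MEG exceeded ERY in *Cd34* by 4.65, in *Dnmt3b* by 1.64, in *Irf1* by 1.52, in *Psmb8* by 1.48 and in *Lsp1* and *Eng* by 1.38, and MEG minus ERY was -1.33 for *Pold1* (log2). Among genes higher in both, MEG minus ERY was -4.29 for *Sptb*, -3.28 for *Cpox*, -2.60 for *Tfrc*, -2.32 for *Tent5c*, -2.01 for *Cenpe*, -1.59 for *Usp32*, -1.54 for *Rsad2*, -1.30 for *Trim58*, -1.29 for *Gypc* and -1.14 for *Ube2o*, and it was 2.62 for *Tubb1*.

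In 24 of 357 groups of 4 arrays, 1 array lay far from the other 3, with a gap to its neighbour, as a share of the range of the group, above Dixon's 95% limit; chance marks about 1 in 20 groups. In HSPC, array 1 was low for *Selplg* (0.875 of the range), *Cd74* (0.868) and *Hdc* (0.834), and array 2 was high for *Mc5r* (0.901). In MEG, array 1 was high for *Ube2h* (0.938), *Rab8b* (0.924), *Wipi1* (0.836) and *Sf3b1* (0.836), array 2 for *H2-Aa* (0.834) and array 3 for *Mc5r* (0.883), and array 4 was low for *Atp6v0a1* (0.957). In ERY, array 1 was high for *Elane* (0.96) and *Isg20* (0.902) and low for *Dnmt3b* (0.937), *Ccnd1* (0.886) and *Cd79b* (0.831). ERY array 2 was high for *Dennd2c* (0.854) and *Slc22a23* (0.837) and low for *Cdk4* (0.858) and *Phgdh* (0.837). ERY array 3 was low for *Shmt1* (0.916) and *Cdkn1b* (0.843), and array 4 was low for *Rb1cc1* (0.957) and high for *H2-Aa* (0.833).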

How the results depend on the processing

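Across 29 alternative settings, the genes lower in both lineages numbered 1284 and moved by over 1.5 times when arrays were centred on ribosomal protein genes (484), at 1.5-fold in each lineage (2485) and with a limit on the mean change alone (2030). The genes higher in both numbered 706 and moved in the same 3 settings, to 1754, 1251 and 1310, and also without HSPC array 1 (1063), with HSPC arrays 1 and 2 left out (1474), with HSPC arrays 3 and 4 left out (273) and with array weights (1400). Leaving out single arrays gave 1145 to 1623 lower genes and 477 to 1063 higher genes, the highest without HSPC array 1 and the lowest without HSPC array 4. Of all calls 35.5% were higher, against 48.4% centred on genes above background, 78.4% centred on ribosomal protein genes, 20.9% without HSPC arrays 3 and 4 and 46.8% with array weights. With HSPC arrays 3 and 4 left out, 66.1% of the lower and 35.6% of the higher genes kept their call. Over all lists 111 members were lower and 49 higher. The lower count became 67 with ribosomal centring, 190 at 1.5-fold and 179 by mean change, and the higher count 92 with ribosomal centring, 87 by mean change, 93 and 29 with HSPC arrays 1 and 2 or 3 and 4 left out, and 94 with array weights. Leaving out single arrays gave 102 to 122 lower and 40 to 62 higher members. Of 122 named genes 81 had the same call in every setting. *Meis1* changed sign with ribosomal centring (0.08). The cause of these shifts was not tested.

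Replicate numbers did not pair the arrays: 5 of 12 same-numbered pairs had a correlation over 0.1, and r ran from -0.35 to 0.37. With the replicate number as a block there were 1283 lower and 701 higher genes, and 112 and 48 list members. The background limit of 6.19 was reached by 60.4% of the genes.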

Other observations

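Some genes with large changes lay in none of the lists. They were picked after their values were seen and were called again with either pair of HSPC arrays left out. *Jak2*, the kinase through which the erythropoietin and thrombopoietin receptors signal, changed by 2.92 in MEG and 2.88 in ERY (adjusted p = 3.4e-04), with HSPC arrays from 9.19 down to 5.87. *Mkrn1*, a ubiquitin ligase, read 7.37, 7.32, 7.15 and 7.15 in HSPC, 10.91, 10.39, 10.23 and 10.27 in MEG and 11.10, 11.29, 10.83 and 10.81 in ERY, with a change of 3.20 in MEG and 3.76 in ERY (adjusted p = 2.6e-08). *Nt5c3*, a nucleotidase of maturing red cells that clears products of RNA decay, changed by 3.22 and 3.54, and *Smox*, spermine oxidase, by 3.02 and 3.37. *Daam1*, a formin that assembles actin, changed by 4.67 and 3.21, and the kinase gene *Bmp2k* by 3.30 and 3.13. On the lower side, the actin-binding thymosin gene *Tmsb10* changed by -2.87 in MEG and -3.32 in ERY, the myosin light chain gene *Myl4* by -3.0 and -3.21, and *Ndn*, the growth suppressor necdin, by -2.78 and -2.96.

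Of the 1284 lower genes, 168 were above the background limit in HSPC and below it in both lineages, and of the 706 higher genes, 66 were below the limit in HSPC and above it in both.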
